A study of Mus musculus with 24 samples.

Results

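The genes described here are 10 genes of the cytosolic heat shock machinery: the HSP70 chaperones Hspa1a, Hspa1b and Hspa8, their HSP110 relatives Hsph1 and Hspa4l, the HSP90 genes Hsp90aa1 and Hsp90ab1, the small heat shock proteins Hspb1 and Hspb3, and the transcription factor Hsf1. Each gene was taken as the mean of the probe sets that name it and no other gene, which gave 8 measured genes from 12 of the 34351 probe sets, out of 22180 genes in all. Hspa8 had 4 probe sets, Hspb1 had 2, and the other measured genes had 1 each. Hsp90ab1 and Hsf1 had no probe set naming them alone in the annotation used, so they were not analysed here.

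The study followed heart transcripts of wild-type C57Bl/6 mice through a single day. All animals were male, were 8 weeks old, carried no other allele or treatment that the labels name, and lived in 12 h of light and 12 h of dark. Hearts, labelled as myocardium, were taken at ZT03 (zeitgeber time, counted in hours from when the lights came on), ZT07 and ZT11, when lights were on, and ZT15, ZT19 and ZT23, when they were off. Each of the 6 times held 4 biological replicates per the labels, with an array for each of the 24 samples. Every value is a log2 difference from the probe set's own median over the 24 arrays, averaged for genes with several probe sets. So 0 is a gene's middle value, or only near it for genes with several probe sets. Levels of different genes cannot be compared. The base of the logarithm and the direction (higher as more RNA) are assumed, since no source used here states them, and all fold changes rest on them.

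Heat shock proteins hold other proteins in a foldable state, refold them and keep them from clumping. HSP70 works in a cycle of ATP binding and breakdown, in which J-domain proteins speed the breakdown and HSP110 proteins release the ADP. HSP90 takes over client proteins such as kinases and steroid receptors, and small heat shock proteins bind unfolded proteins without ATP. In heat and other stress, Hsf1 forms trimers that bind repeats of the bases GAA in alternating orientation before the heat shock genes, and in heart these chaperones are known for protecting contractile proteins under stress.

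Of the measured genes found with a pair of such repeats before their start, 4 are shown and Hspb3 is not. The promoters are shown as the 250 bases before the start of transcription. They are RefSeq sequences of build GRCm38.p6, 5′ to 3′ on the gene's strand, with every match of TTCNNGAA or GAANNTTC (each is its own reverse complement, so 1 search covers both strands) in capitals. Hspa1a is chr17:34972157-34972406 and Hspa1b is chr17:34959239-34959488, both on the minus strand. Hsph1 is chr5:149636316-149636565 on the minus strand and Hspb1 is chr5:135887669-135887918 on the plus strand.
Hspa1a: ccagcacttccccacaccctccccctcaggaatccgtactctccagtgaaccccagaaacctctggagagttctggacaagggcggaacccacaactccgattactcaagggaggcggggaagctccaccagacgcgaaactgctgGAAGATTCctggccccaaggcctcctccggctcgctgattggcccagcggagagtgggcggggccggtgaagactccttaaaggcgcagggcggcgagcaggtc
Hspa1b: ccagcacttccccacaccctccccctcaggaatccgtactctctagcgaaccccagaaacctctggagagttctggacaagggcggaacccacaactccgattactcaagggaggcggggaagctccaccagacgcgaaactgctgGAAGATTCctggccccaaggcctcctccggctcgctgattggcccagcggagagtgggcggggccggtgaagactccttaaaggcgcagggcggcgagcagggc
Hsph1: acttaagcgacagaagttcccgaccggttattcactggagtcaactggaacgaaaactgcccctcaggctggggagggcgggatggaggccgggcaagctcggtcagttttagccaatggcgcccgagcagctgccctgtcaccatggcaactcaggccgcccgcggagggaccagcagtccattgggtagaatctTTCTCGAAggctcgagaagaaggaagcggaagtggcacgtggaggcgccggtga
Hspb1: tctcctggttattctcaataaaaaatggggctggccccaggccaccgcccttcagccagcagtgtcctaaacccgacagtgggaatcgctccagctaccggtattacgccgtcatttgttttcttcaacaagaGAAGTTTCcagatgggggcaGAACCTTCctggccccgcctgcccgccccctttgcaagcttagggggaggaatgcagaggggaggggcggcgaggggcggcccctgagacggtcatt

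The Hspa1a and Hspa1b promoters had 247 of 250 bases in common and differed at 3. Each held GAAGATTC at -104 to -97, counted from the start of transcription. Hspb1 held GAAGTTTC at -117 to -110 and GAACCTTC at -97 to -90. Hsph1 has 2 starts in the table. From the start used for the printed bases, TTCTCGAA lay at -54 to -47, and a run of 3 alternating units, TTCTGGAAAGTTC, lay past the start at 16 to 28. Hsph1 also held CACGTG, the E-box that clock proteins can bind, at -19 to -14. From the other start these 3 lie at -33 to -26, 37 to 49 and 3 to 8. Hspb3 held GAATTTTC at -224 to -217, and Hspa4l held none of these letters in the window. Of the 10 genes 6 had an entry in the promoter table, and 5 of these 6 held a 2-unit match within the 300 bases searched (250 before the start and 50 after). Among all 32851 promoters of that length in the table, 15.1% held TTCNNGAA or GAANNTTC, 0.603% held a 3-unit run (TTCNNGAA followed by NNTTC, or GAANNTTC followed by NNGAA, so that each run contains both 2-unit forms) and 7.15% held CACGTG. These matches describe the letters and are not measured binding sites.

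A 24-h rhythm was called for all 8 measured genes in limma, by a moderated F over a cosine and a sine term (adjusted p below 0.05, Benjamini-Hochberg over all genes), against a background of 7.61% of the 22180 genes. Every fitted peak lay in the dark (background 3.78%), between ZT 18.4 ± 0.674 h (SE) for Hspa1a and ZT 21.5 ± 0.646 h for Hspb3. A called rhythm with a peak between ZT18 and ZT22 was found for 1.41% of all genes. The genes and lists were chosen with earlier results of these data known. Background shares here and below therefore describe them and do not test them as a group. The largest peak-to-trough change among the 8 was 1.99-fold for Hspa1b and the smallest was 1.24-fold for Hspb1, with a median of 1.46-fold against 1.06-fold over all genes. The 12-h component, tested in limma beside the 24-h terms, was called for 0 of 8 (background 0%), and at an unadjusted p below 0.05 for Hsph1 only, against 6.32% of all genes.

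The dark phase was set against the light phase by subtracting the mean over the 3 light times from the mean over the 3 dark times. In limma 7 of the 8 genes were higher at night (adjusted p below 0.05, background 1.89%), and Hspa4l was not called. Any difference among the 6 times was called for the same 7 genes (background 4.72%). The median night-minus-day difference of the 8 genes was 0.39 on the log2 scale, against 0.0021 over all genes. The arrays cover 1 cycle, so whether the pattern returns was not tested, and responses to light and to the body clock cannot be told apart. The labels give no batch, so a batch shared by the arrays of a time cannot be told apart from time either.

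**Figure D1:**
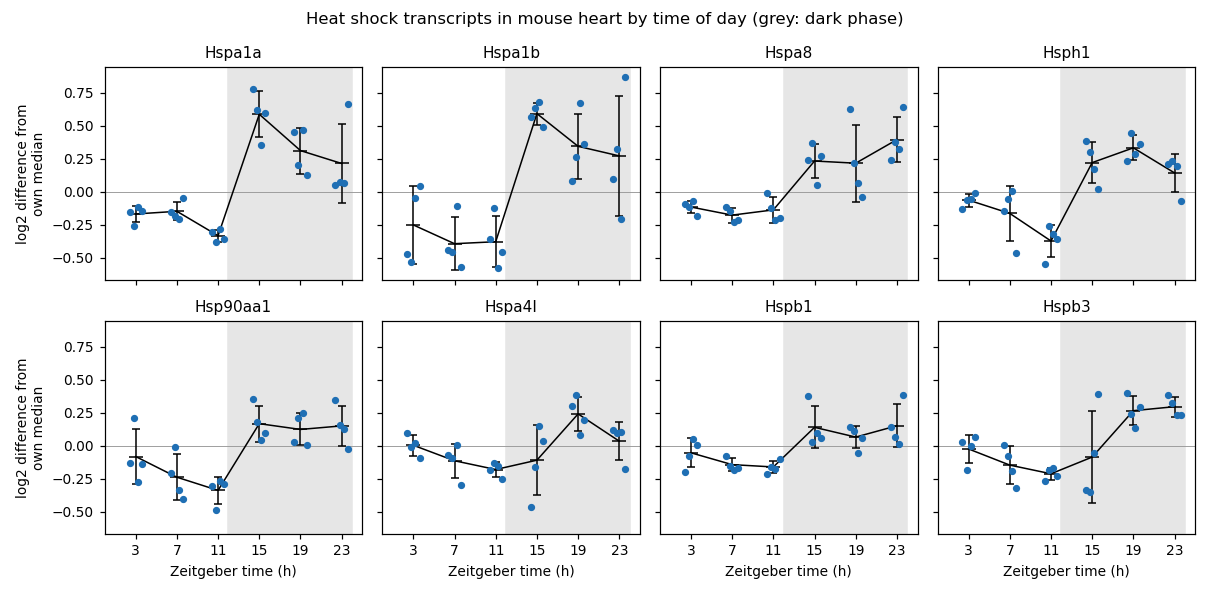
Values of the 8 measured genes on each array (points) against zeitgeber time in hours. They are log2 differences from the probe set's own median, averaged over probe sets for Hspa8 and Hspb1. Lines join the time means, bars are ± 1 SD (n = 4), and grey marks the dark phase. Hspa1a, Hspa1b, Hsph1 and Hsp90aa1 step up between ZT11 and ZT15, while the means of Hspa4l and Hspb3 are still below 0 at ZT15.

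The array labels were checked on the clock genes Arntl and Dbp, which peaked at ZT 0.329 and ZT 11.4 with changes of 7.13-fold and 5.08-fold. Array medians of all probe sets lay close to 0, and 3 arrays stood apart by a low limma array weight: ZT15 replicate 1 (0.498), ZT23 replicate 4 (0.573) and ZT07 replicate 4 (0.640). Calls that changed without these 3 arrays are given beside their results. Centred values hold no level, so the labelled tissue could not be checked against its markers. Whole hearts hold several cell types, and fewer cells of a type and less RNA per cell cannot be told apart.

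Hspa1a, the stress-inducible HSP70, was at -0.15, -0.26, -0.11 and -0.15 in the 4 arrays of ZT03, at -0.15, -0.19, -0.20 and -0.048 at ZT07, and at -0.31, -0.38, -0.28 and -0.36 at ZT11. In the dark it was at 0.78, 0.62, 0.36 and 0.60 at ZT15, at 0.45, 0.20, 0.47 and 0.13 at ZT19, and at 0.048, 0.074, 0.067 and 0.67 at ZT23. Each of the 12 night arrays lay above each of the 12 day arrays, and the lowest day values were those of ZT11, the last time before dark. Only 4 of all genes (0.018%) had every night array above every day array, namely Hspa1a, the clock repressor Cry1, and Mmrn1 and Ppbp, both known from platelets. No such share was counted for the placing of night and day arrays given below for the other genes. Night was higher than day by 0.59 ± 0.063 (SE), or 1.5-fold (limma adjusted p = 7.53e-06). At ZT23 the array of replicate 4 stood far above the other 3, which were close to 0.

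Hspa1b, a near-identical inducible copy of Hspa1a on chromosome 17, was at -0.47, -0.53, -0.044 and 0.044 at ZT03, at -0.44, -0.46, -0.10 and -0.57 at ZT07, and at -0.36, -0.12, -0.58 and -0.45 at ZT11. In the dark its arrays held 0.57, 0.63, 0.68 and 0.49 at ZT15, 0.083, 0.27, 0.67 and 0.36 at ZT19, and 0.10, 0.33, -0.21 and 0.87 at ZT23. The arrays of ZT15 lay close together and above all day arrays, and those of ZT23 spread widely and overlapped the day. Night exceeded day by 0.74 ± 0.102 (SE), or 1.67-fold (limma adjusted p = 0.000123), the largest difference of the 8 genes. Over the 24 arrays Hspa1a and Hspa1b had a correlation of 0.85. How far each probe set reads its own copy alone is not known from the sources used here, so the pair counts as uncertain evidence for separate changes.

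For Hspa1a the time means ran from -0.33 ± 0.046 (SD, n = 4) at ZT11 to 0.59 ± 0.17 at ZT15, then 0.31 ± 0.17 at ZT19 and 0.21 ± 0.30 at ZT23. For Hspa1b they ran from -0.38 ± 0.19 at ZT11 to 0.59 ± 0.084 at ZT15, 0.34 ± 0.25 at ZT19 and 0.27 ± 0.45 at ZT23. In limma's contrasts between neighbouring times, the step from ZT11 to ZT15 was called for both genes, and no other step of either was. That step was 0.92 ± 0.11 (SE), or 1.89-fold, for Hspa1a (adjusted p = 0.000767) and 0.97 ± 0.18, or 1.96-fold, for Hspa1b (adjusted p = 0.0174). The Hspa1b step was no longer called without ZT11 replicate 3, ZT11 replicate 4, ZT15 replicate 2 or ZT15 replicate 3 (adjusted p up to 0.0963). The later fall of Hspa1a from ZT15 to ZT19, -0.27 ± 0.11, did not pass (adjusted p = 0.441).

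Hspa8, the constitutive HSP70 present in unstressed cells, was at -0.093, -0.12, -0.069 and -0.18 at ZT03, at -0.11, -0.15, -0.23 and -0.21 at ZT07, and at -0.0059, -0.12, -0.21 and -0.20 at ZT11. After dark it was at 0.24, 0.37, 0.053 and 0.27 at ZT15, 0.62, 0.22, 0.064 and -0.039 at ZT19, and 0.24, 0.37, 0.32 and 0.64 at ZT23. All night arrays but ZT19 replicate 4 lay above the highest day array. Night was higher by 0.42 ± 0.060 (SE), or 1.34-fold (limma adjusted p = 0.000165). Hspa8 had its highest mean at ZT23, 0.39 ± 0.17 (SD, n = 4), and its lowest at ZT07, -0.18 ± 0.056. Hspa1a and Hspa1b were highest at ZT15. Probe set 17516365 of Hspa8 was lowest at ZT11 (-0.20) and nearly level in the dark, at 0.10, 0.12 and 0.11 at ZT15, ZT19 and ZT23. The other Hspa8 probe sets were highest at ZT23 and lowest at ZT07. The 24-h pattern of the difference between Hspa8 and Hspa1b was not called (adjusted permutation p = 0.101). The only step called for Hspa8 was the fall from ZT23 to ZT03, where it decreased by 0.51 on the log2 scale (1.42-fold, limma adjusted p = 0.0215, background 0.126% lower). That call was lost without ZT03 replicate 2, 3 or 4 or without ZT23 replicate 4 (adjusted p up to 0.102), and without the 3 arrays of low weight together (0.100).

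The 4 Hspa8 probe sets peaked within ZT 19.6 to ZT 19.9 but differed in size. Probe set 17516365 had the smallest change, 1.27-fold from peak to trough, and the smallest rhythm p of the 4 (limma adjusted p = 1.47e-05 over probe sets). Its arrays at a single time had an SD of 0.042 to 0.059, its means were -0.12, -0.14 and -0.20 in the light at ZT03, ZT07 and ZT11, and 0.10, 0.12 and 0.11 in the dark. All its night arrays lay above all its day arrays, whereas night and day overlapped in each of the other Hspa8 probe sets. The share of all probe sets without such overlap was not counted. In 17516365 the step from ZT11 to ZT15 was 0.30 ± 0.040 (SE, adjusted p = 0.00163), which was not called for the gene's mean (0.37 ± 0.10, adjusted p = 0.205).

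The other Hspa8 probe sets changed more and varied more. Probe set 17434475 changed 1.60-fold from peak to trough (adjusted p = 0.000314). Probe sets 17548379 and 17548744 changed 1.53-fold each (0.0137 and 0.0130) and were nearly equal on every array, with a correlation of 0.999 and a largest gap of 0.037. Both enter the mean of the gene, and with 1 of them left out, a setting added after the data had been seen, night minus day of Hspa8 was 0.41 (limma adjusted p = 7.47e-05). Between the other pairs of probe sets the correlation ran from 0.762 to 0.927. At ZT19, 17548379 was at 0.77, 0.23, 0.0095 and -0.12, while 17516365 was at 0.18, 0.10, 0.082 and 0.11. The night-minus-day difference of 17434475 exceeded that of 17516365 by 0.22, with an unadjusted 95% t interval of 0.0671 to 0.376. It was called in a permutation test on the difference within arrays (adjusted p = 0.0438 over 24 tests). That call was lost on leaving out any 1 of 11 arrays (adjusted p up to 0.0678), namely ZT03 replicates 2 and 3, all those of ZT07, ZT11 replicates 2 and 4, ZT15 replicates 2 and 4, and ZT23 replicate 2. Hspa8 has many pseudogene copies, and which copies each probe set also reads was not tested.

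**Figure D2:**
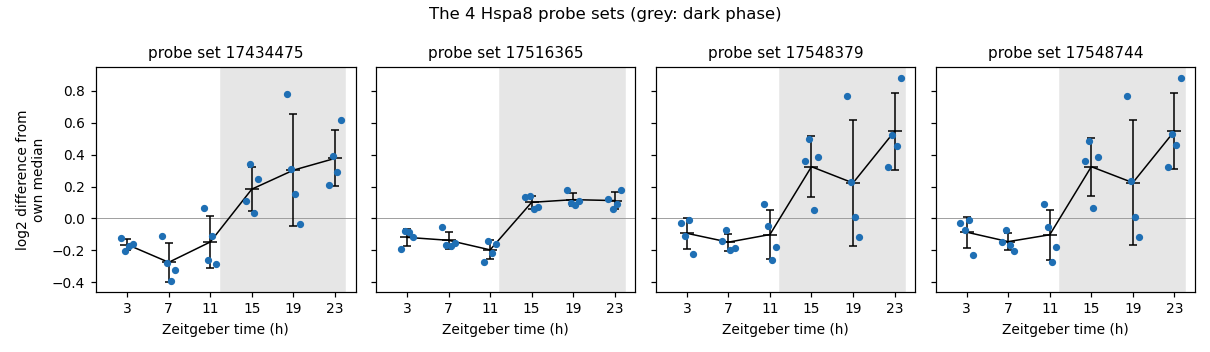
The 4 probe sets of Hspa8 on each array (points), as the log2 difference from the probe set's own median, against zeitgeber time in hours, with time means joined and bars of ± 1 SD (n = 4); grey marks the dark phase. Probe set 17516365 has tight replicates near 0.1 in the dark, and the others reach 0.77 to 0.88 on single arrays.

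Hsph1, an HSP110 that releases ADP from HSP70 and is itself induced by heat, was at -0.13, -0.061, -0.053 and -0.0078 at ZT03, at -0.15, -0.055, 0.0078 and -0.46 at ZT07, and at -0.55, -0.26, -0.32 and -0.36 at ZT11. In the dark the arrays read 0.38, 0.30, 0.18 and 0.022 at ZT15, 0.23, 0.45, 0.29 and 0.36 at ZT19, and 0.21, 0.24, 0.20 and -0.072 at ZT23. The arrays of ZT11 were the lowest of the light phase but for ZT07 replicate 4, and 11 of 12 night arrays lay above the highest day array. Night was higher by 0.43 ± 0.054 (SE), or 1.35-fold (limma adjusted p = 4.50e-05). From ZT11 to ZT15 the mean rose by 0.59 ± 0.093 (SE), or 1.51-fold (adjusted p = 0.00521). Its 24-h peak was at ZT 19.8 ± 0.583 h (SE) with a change of 1.53-fold (adjusted p = 0.000338).

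Hspa4l, a further HSP110 relative, behaved less regularly. Its means were 0.0032 ± 0.079, -0.11 ± 0.13 and -0.18 ± 0.053 (SD, n = 4) at ZT03, ZT07 and ZT11, and -0.11 ± 0.27, 0.24 ± 0.13 and 0.034 ± 0.14 at ZT15, ZT19 and ZT23. At ZT15 the arrays ran from -0.46 to 0.15, the lowest being ZT15 replicate 1, and the night range covered all day arrays. Night minus day was 0.15 ± 0.057 (SE) and did not pass (limma adjusted p = 0.156), while it was 0.19 (adjusted p = 0.00705) without the 3 arrays of low weight and was called without ZT15 replicate 1 alone (adjusted p = 0.0182). Without the 3 arrays, any difference among the times (adjusted p = 0.0842 with all arrays and 0.00709 without), ZT19 against ZT07 (0.0794 and 0.0444) and ZT23 against ZT11 (0.345 and 0.0314) were called for Hspa4l too. The 24-h rhythm passed narrowly (1.26-fold, peak ZT 21.3 ± 1.01 h SE, adjusted p = 0.0483). Leaving out a single array ended the call in 20 of 24 cases (adjusted p up to 0.0924). The call was kept without ZT07 replicate 3, ZT15 replicate 1, ZT15 replicate 3 or ZT23 replicate 4.

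Hsp90aa1, the stress-inducible cytosolic HSP90, was at -0.13, 0.21, -0.28 and -0.14 at ZT03, at -0.21, -0.0067, -0.33 and -0.40 at ZT07, and at -0.30, -0.49, -0.27 and -0.29 at ZT11. At night it read 0.35, 0.18, 0.042 and 0.095 at ZT15, 0.031, 0.21, 0.24 and 0.0067 at ZT19, and 0.34, 0.16, 0.13 and -0.027 at ZT23. The day arrays lay below the night arrays except ZT07 replicate 2 and ZT03 replicate 2, which only 3 night arrays exceeded. Night was higher by 0.37 ± 0.059 (SE), or 1.29-fold (limma adjusted p = 0.000557). The step from ZT11 to ZT15 was 0.50 ± 0.10 (SE), or 1.42-fold (adjusted p = 0.0357). It was lost on leaving out any 1 of the 8 arrays of those times (adjusted p up to 0.146, without ZT11 replicate 2) and without the 3 arrays of low weight (0.0719). In the dark the 3 time means differed by less than their spread, at 0.17 ± 0.14, 0.12 ± 0.12 and 0.15 ± 0.15 (SD, n = 4).

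The step across lights-off, ZT15 against ZT11, was thus called upward for 4 of the 8 genes (Hspa1a, Hspa1b, Hsph1 and Hsp90aa1) against 0.113% of all genes. The step across lights-on, ZT03 against ZT23, was called downward for Hspa8 alone. The other 4 steps were called for 0 of the 8 genes in either direction, with backgrounds of 0.203% from ZT03 to ZT07, 0.311% from ZT07 to ZT11, 0.203% from ZT15 to ZT19 and 0.0676% from ZT19 to ZT23. At lights-off the differences of the remaining genes were 0.37 ± 0.10 (SE) for Hspa8, 0.30 ± 0.076 for Hspb1, 0.13 ± 0.11 for Hspb3 and 0.071 ± 0.10 for Hspa4l, none past the threshold in limma (adjusted p = 0.205, 0.136, 0.881 and 0.938).

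Hspb1 (HSP27 in humans), a small heat shock protein of muscle and vessel wall, had time means of -0.054 ± 0.11, -0.14 ± 0.048 and -0.16 ± 0.048 (SD, n = 4) in the light at ZT03, ZT07 and ZT11. In the dark the means were 0.14 ± 0.16, 0.065 ± 0.086 and 0.15 ± 0.16 at ZT15, ZT19 and ZT23. The highest arrays were ZT15 replicate 1 and ZT23 replicate 4, both at 0.38, which are also the arrays of lowest weight, and 9 of 12 night arrays lay above the highest day array. Night was higher by 0.24 ± 0.044 (SE), or 1.18-fold (limma adjusted p = 0.00234), and the rhythm had a peak at ZT 19.8 ± 0.822 h (SE, adjusted p = 0.0112).

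Both Hspb1 probe sets were higher at night, by 0.15 for 17286958 (limma adjusted p = 0.0425) and by 0.33 for 17443342 (adjusted p = 0.00227). The rhythm was called for the second only (adjusted p = 0.0103, and 0.109 for the first). Both enter the mean of the gene, and whether each reads Hspb1 alone was not tested. The night-minus-day values of these probe sets differed by -0.18, with an unadjusted 95% t interval of -0.299 to -0.0599. The two-sided permutation test gave an unadjusted p of 0.00501 and was added after their values were seen.

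Hspb3, a small heat shock protein of muscle, had its highest values late in the dark. Its arrays at ZT15 were at -0.33, -0.35, -0.055 and 0.39, at ZT19 at 0.40, 0.24, 0.13 and 0.29, and at ZT23 at 0.39, 0.32, 0.24 and 0.23. In the light the means were -0.025 ± 0.11, -0.15 ± 0.14 and -0.21 ± 0.044 (SD, n = 4) at ZT03, ZT07 and ZT11. At ZT15 the arrays split across the whole range of the gene, whereas all arrays of ZT19 and ZT23 lay above all day arrays. How many of all genes had such a placing at ZT19 and ZT23 was not counted. Night was higher by 0.29 ± 0.065 (SE), or 1.22-fold (limma adjusted p = 0.0111). Its rhythm changed 1.45-fold with a peak at ZT 21.5 ± 0.646 h (SE, adjusted p = 0.00110). The difference of ZT19 from ZT15, 0.35 ± 0.11 (SE), was not called (adjusted p = 0.287) but was without ZT15 replicate 4 (0.00562).

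Times 12 h apart were also compared, on the same arrays and in the same fit as the steps. ZT15 was higher than ZT03 in 2 of 8 genes (background 1.36%), Hspa1a by 0.75 ± 0.11 (SE) and Hspa1b by 0.84 ± 0.18 (limma adjusted p = 0.000183 and 0.00784). ZT19 was higher than ZT07 in 3 of 8 (background 0.888%), Hspa1a by 0.46, Hspa1b by 0.74 and Hsph1 by 0.50 (adjusted p = 0.0329, 0.0343 and 0.00713). The Hspa1a call was lost without any array of ZT07 or without ZT19 replicate 1, 2 or 3 (adjusted p up to 0.105). The Hspa1b call was lost without ZT07 replicate 1, 2 or 4 or ZT19 replicate 2, 3 or 4 (up to 0.120). ZT23 was higher than ZT11 in 6 of 8 (background 0.965%), by 0.31 for Hspb1 to 0.55 for Hspa1a. Hspb1 (adjusted p = 0.0276) lost that call without ZT11 replicate 1, 2 or 3 or ZT23 replicate 1 or 4 (up to 0.111). Hspa1b was at adjusted p = 0.0506 there, with a difference of 0.65 ± 0.18, and was called without any 1 of 7 arrays, at the lowest 0.0124 without ZT23 replicate 3.

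Whether the measured changes of the genes differed in size was tested on differences within arrays. The times of the 24 arrays were permuted (100000 resamples, two-sided, adjusted over 24 tests on 12 pairs). The 95% intervals are t intervals and, unlike the p-values, are not adjusted. Hspb1 changed less than Hspa1b, with a difference of -0.50 in night minus day (95% interval -0.716 to -0.294, adjusted p = 0.00192). Hspa4l also changed less than Hspa1b, with a difference of -0.59 (-0.898 to -0.282, adjusted p = 0.00672). The difference between Hspa1b and Hspa1a was 0.16 (-0.0422 to 0.354) and was not called (adjusted p = 0.199). For Hspa8 and Hsph1 against Hspa1b it was -0.32 (-0.585 to -0.052) and -0.31 (-0.568 to -0.0533), both at adjusted p = 0.054. Hspb3 and Hspb1 differed by 0.048 (-0.153 to 0.250, adjusted p = 0.768). Each gene was read by its own probe sets, and those of Hspb1 also differed in night minus day (0.15 and 0.33). How far probe sets rather than RNA made the differences between genes was not tested.

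**Figure D3:**
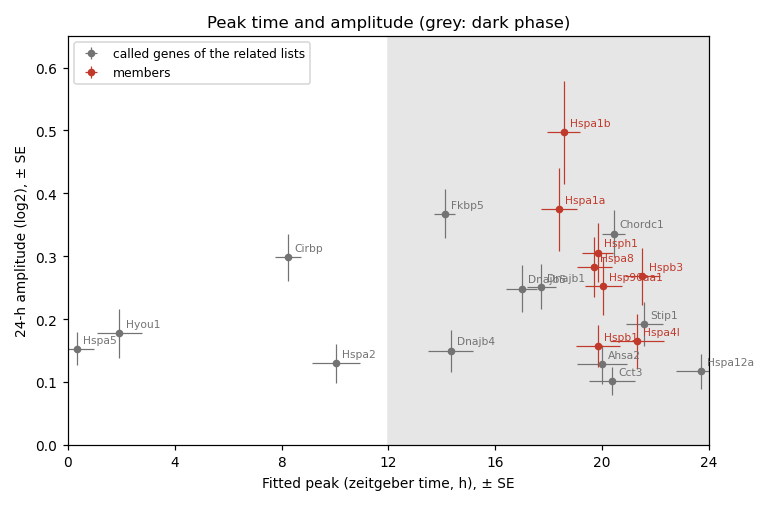
Fitted 24-h amplitude (log2, ± SE) against fitted peak time (zeitgeber time in hours, ± SE) for the 8 genes (red) and the called genes of the related lists (grey); the grey band is the dark phase. The 8 genes lie between ZT 18.4 and ZT 21.5, with Hspa1b at the largest amplitude, and Cirbp lies in the light at ZT 8.25.

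The partners of these chaperones were read from 8 lists of related chaperone genes, 62 measured of 66 listed. In limma 12 of the 62 (19.4%, background 7.61%) had a 24-h rhythm, 9 with a peak in the dark and 3 in the light, and 7 were higher at night (background 1.89%). Among J-domain proteins, which hand clients to HSP70, 3 of 8 were rhythmic. Dnajb1, a main partner of inducible HSP70, changed 1.42-fold with a peak at ZT 17.7 (adjusted p = 0.000135) and was higher at night by 0.36 ± 0.045 (SE). Dnajb5 changed 1.41-fold with a peak at ZT 17.0 (adjusted p = 0.000348), and Dnajb4 changed 1.23-fold with a peak at ZT 14.3 (adjusted p = 0.0153).

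HSP90 co-chaperones were rhythmic in 4 of 13 cases, all with a dark peak. Chordc1, which binds HSP90 and is induced by heat, changed 1.59-fold with a peak at ZT 20.4 (limma adjusted p = 7.60e-06). Its means were -0.24 ± 0.059 (SD, n = 4) at ZT11 and 0.41 ± 0.15 at ZT19. Fkbp5, an immunophilin of the steroid receptor complex and a target of glucocorticoids, peaked earlier, at ZT 14.1, with a change of 1.66-fold (adjusted p = 2.93e-06). Stip1, which links HSP70 to HSP90, changed 1.30-fold with a peak at ZT 21.6 (adjusted p = 0.00255), and Ahsa2, a relative of the HSP90 ATPase activator, changed 1.19-fold (adjusted p = 0.0268).

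**Figure D4:**
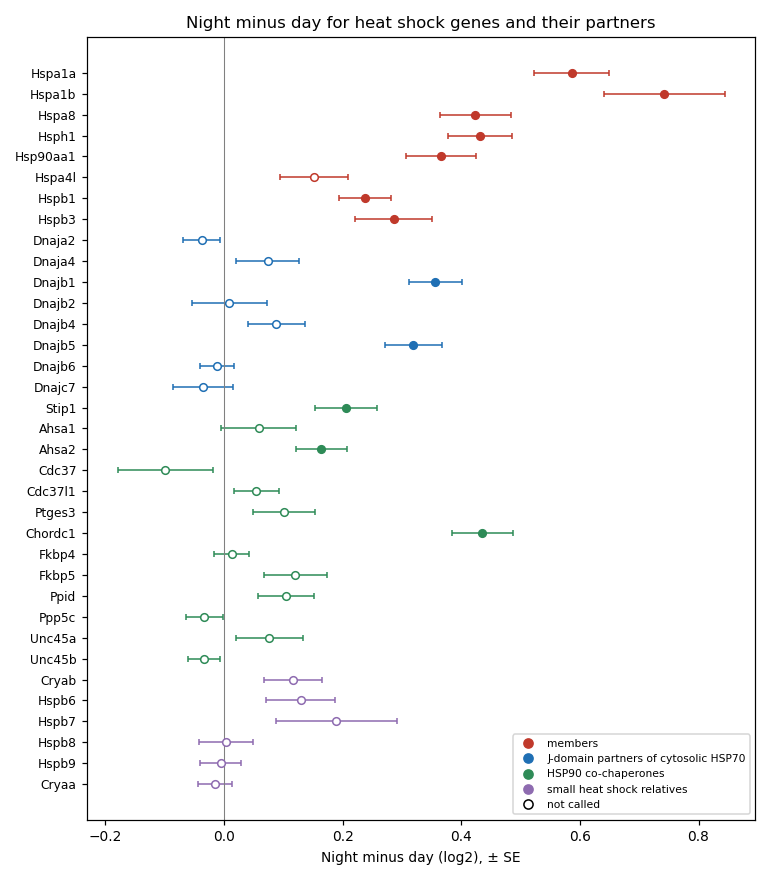
Night-minus-day difference (log2, ± SE) of the 8 genes and of their J-domain partners, HSP90 co-chaperones and small heat shock relatives; filled points were called in limma and open points were not. The 8 genes run from 0.15 for Hspa4l to 0.74 for Hspa1b, and among the small heat shock relatives no point is filled.

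Of the HSP70 and HSP110 relatives 4 of 10 were rhythmic, none of them called between night and day. Hspa5 and Hyou1, chaperones of the endoplasmic reticulum, peaked near lights-on at ZT 0.325 and ZT 1.93 with changes of 1.24-fold and 1.28-fold (limma adjusted p = 0.00148 and 0.0121). Hspa2 peaked at ZT 10.03 (1.20-fold, 0.0234) and Hspa12a at ZT 23.7 (1.18-fold, 0.0289). Both measured HSP90 relatives, all 6 small heat shock relatives, all 5 genes of the heat shock factor list (4 factors and the factor binding protein Hsbp1) and all 8 nucleotide exchange factors and partners missed the rhythm threshold, although Bag3, a co-chaperone of muscle, was higher at night by 0.17 ± 0.047 (SE, adjusted p = 0.0389). Of 10 chaperonins only Cct3 passed (1.15-fold, peak ZT 20.4, adjusted p = 0.0139).

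Cirbp, an RNA-binding protein induced by mild cold, moved the other way. It was at 0.17 ± 0.035, 0.18 ± 0.050 and 0.17 ± 0.15 (SD, n = 4) at ZT03, ZT07 and ZT11 and at -0.070 ± 0.088, -0.27 ± 0.17 and -0.40 ± 0.044 at ZT15, ZT19 and ZT23. Night minus day was -0.42 ± 0.042 (SE), with a peak at ZT 8.25 and a change of 1.51-fold (limma adjusted p = 3.82e-05). Of 12 immediate early genes, which respond fast to stimuli and to tissue handling, 4 were rhythmic (background 7.61%), Ier3 with a dark peak and Egr1, Nr4a1 and Zfp36 with a peak in the light. At night 1 of the 12 was called higher (background 1.89%) and 2 lower (background 2.49%).

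Genes whose pattern over the 24 arrays was most like each of the 8 were ranked by Pearson's r, predicted genes and the 8 themselves left out. All of them share the arrays and the time course, so r is given as a description. Dnajb1 was first for Hspa1a (0.878), before Ctla2a (0.823) and Cd9 (0.816). It was first for Hspa1b too (0.903), before Zbed3 (0.810) and Ppp1r3b (0.777). Cited4 and Atxn2 were among the top 3 of both Hsph1 (0.852 and 0.830) and Hsp90aa1 (0.849 and 0.852), with Ubap1 (0.842) as the other gene for Hsph1 and Adamtsl5 (0.806) for Hsp90aa1. For Hspa8 the top 3 were Srgn, Rpl28 and Ctla2a (0.863 to 0.827), for Hspa4l they were Zc3h14, Noa1 and Atp6v1d (0.864 to 0.848), and for Hspb3 Galm, Zfp449 and Palmd (0.860 to 0.818). For Hspb1 the top 3 were Plek, Ppbp and Ctla2a (0.852, 0.833 and 0.821), of which Plek and Ppbp are known from platelets.

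Of 11 lists of cell type markers, some moved with time as well. Of 5 measured platelet markers 3 were rhythmic (background 7.61%) and higher at night (Ppbp, Pf4 and Gp9). Of 8 macrophage markers 6 were rhythmic and 5 higher at night. Fibroblast markers were rhythmic in 3 of 6 cases, with 1 higher and 2 lower at night. For endothelial markers 1 of 6 was rhythmic and 0 were called between night and day. Both counts were 0 for skeletal muscle (6 measured), neutrophil (5), adipocyte (3), atrial (6), red cell (1) and smooth muscle or pericyte markers (5). The mean of the platelet list was -0.12, -0.13 and -0.14 at ZT03, ZT07 and ZT11, with arrays from -0.29 to -0.050, and 0.34, 0.45 and 0.49 at ZT15, ZT19 and ZT23, with arrays from -0.018 to 1.05. Ppbp weighs most in it, with a night-minus-day difference of 1.70, against 0.59 for Gp9, 0.25 for Pf4, 0.17 for Itga2b and 0.11 for Treml1. Without Ppbp the list was at -0.10, -0.078 and -0.093 in the light and at 0.12, 0.22 and 0.21 in the dark. The macrophage list was at -0.079, -0.22 and -0.026 in the light, with arrays from -0.37 to 0.065, and at 0.17, 0.11 and 0.023 in the dark, with arrays from -0.052 to 0.32. Of 8 ventricular cardiomyocyte markers 1 was rhythmic, 1 was called lower at night (background 2.49%) and 0 higher (background 1.89%). Which markers are absent cannot be read from centred values, and the part of these cells in the heat shock results was not tested.

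Within times, after each time's mean was removed, the 28 pairs of the 8 genes were compared over the 24 arrays (permutation within times, 100000 resamples). None of the 28 was called after adjustment, and 2 were at an unadjusted p below 0.05 for Pearson's r. The strongest was Hspa1a with Hspa4l, r = -0.69 and rho = -0.63 (adjusted permutation p = 0.107 and 0.274), and r = -0.56 without the 2 arrays farthest from the median of Hspa1a. Next came Hspa1a with Hspa8, r = 0.60 and rho = 0.50 (adjusted permutation p = 0.340 and 0.383). Hspa1a with Hspa1b had r = 0.43 (0.467), and r = 0.13 without ZT15 replicate 1 and ZT23 replicate 4. Hsph1 with Hsp90aa1 had r = 0.40 (0.411).

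In the same way each gene was set against the platelet and macrophage means, 16 relations added after the data had been seen. By r none passed, while by rho 2 did. Hspb1 followed the platelet mean (r = 0.66, rho = 0.63, adjusted permutation p = 0.0658 and 0.0434), with r = 0.49 without ZT15 replicate 1 and ZT23 replicate 4. Against the platelet mean without Ppbp, also added after the data had been seen and adjusted over its own 8 relations, Hspb1 alone passed (r = 0.65, rho = 0.68, adjusted permutation p = 0.034 and 0.00568), with r = 0.54 without the same 2 arrays. Hspa4l followed the macrophage mean (r = 0.67, rho = 0.64, adjusted permutation p = 0.0658 and 0.0434), with r = 0.64 without ZT15 replicate 1 and ZT19 replicate 2. The other 14 relations were not called, with r from -0.40 for Hspa1a with the macrophage mean to 0.46 for Hspa1a with the platelet mean. Hspa8 had r = 0.43 with the platelet mean, and Hspa1b had -0.14.

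**Figure D5:**
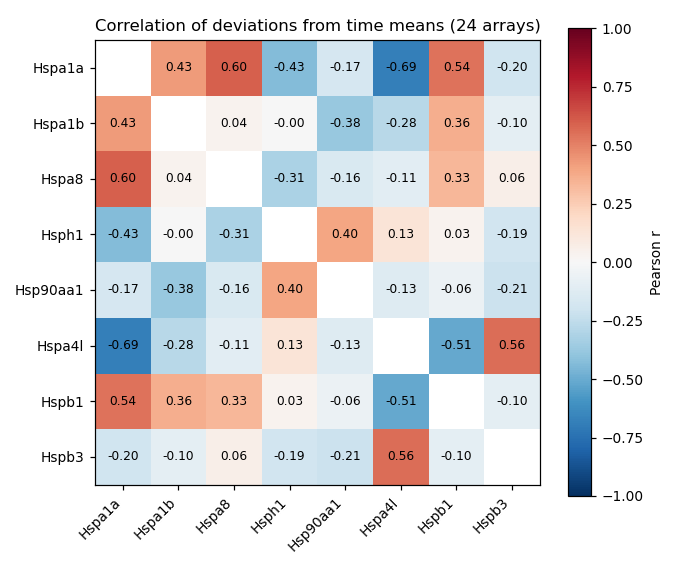
Pearson's r between the deviations of the 8 genes from their time means over the 24 arrays; red is positive and blue negative, on a scale from -1 to 1. The lowest value is -0.69 for Hspa1a with Hspa4l, and no pair passed after adjustment.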

How the data were processed

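Heart samples (6 times, 4 arrays each, 24 in all) were profiled on Affymetrix mouse gene arrays from biotin-labelled cRNA, per the labels' protocols. The deposited log2 values are differences from each probe set's median over all arrays. Base 2 is assumed. How the authors summarised and normalized the arrays, and with which software, is not given in the sources used here. Probe sets naming 1 gene (23521 of 34351) were averaged to 22180 genes through the platform annotation. The 10 genes and all lists were chosen with earlier results of these data known.

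Limma 3.58.1 (R 4.3.3) was fitted to all 24 arrays, with Benjamini-Hochberg adjustment over all genes and a threshold of 0.05. The fit of 6 time means had 18 residual degrees of freedom, and the 24-h and 12-h terms were fitted separately. The tests were a 24-h cosinor F, an F over 6 times, night minus day, 6 neighbouring steps, 3 opposite times and a 12-h component. The change from peak to trough is 2 amplitudes on the log2 scale, given as a fold. Permutation tests used SciPy 1.17.1 and NumPy 2.4.6. Fits were tested on simulated data. Since nothing says how samples were handled together, p-values measure the spread between these arrays, whose number limits precision.

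Named beside the 10 genes were up to 4 called genes of each related list, the 3 genes most correlated with each, and Arntl and Dbp. Genes outside this rule (Bag3, Mmrn1, Cry1, Hsbp1 and the platelet markers) were named after their values were seen. Planned pairs with Hsp90ab1 or Hsf1 (2) were not run, which left 28 pairs within times. A filter on dim probe sets was not possible without levels. Alternatives were quantile normalization, scaling, array weights, robust or no moderation, probe set medians and single probe sets, protein-coding genes only, a replicate block, and leaving out arrays.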

Additional observations from a re-analysis of the deposited data

Results flagged for a closer look

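Of 48 groups of 4 arrays (8 genes at 6 times), 4 held an array whose gap to the nearest other array, divided by the range of the group, was above Dixon's 95% critical value. Chance gives about 1 in 20 groups. Hspa1a in ZT23 replicate 4 was at 0.667, with the other 3 arrays between 0.0482 and 0.0742. Hsph1 in the same array was at -0.0717, below the others at 0.198 to 0.236. Hspa4l in that array was at -0.177, with the others at 0.0929 to 0.118. Hsp90aa1 in ZT11 replicate 2 was at -0.488, with the others from -0.304 to -0.269. Thus 3 of the 4 lie in ZT23 replicate 4, in which Hspa1a was high while Hsph1 and Hspa4l were low, and which had the second lowest array weight (0.573). Night minus day stayed called for Hspa1a, Hsph1 and Hsp90aa1 without any single array, with adjusted p in limma of at most 2.66e-05, 0.000130 and 0.00153.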

How the results depend on the processing

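Leaving out each array in turn, the genes called of 8 ranged from 7 to 8 for the 24-h rhythm, for any difference among times and for night minus day, the 12-h component stayed at 0, steps between neighbouring times ranged from 3 to 6 calls (5 with all arrays), opposite times from 9 to 13 (11) and pair differences from 2 to 6 (3). Steps fell to 3 without ZT11 replicate 3, ZT11 replicate 4, ZT15 replicate 2 or ZT15 replicate 3. Pair differences rose to 6 without ZT11 replicate 1 or ZT19 replicate 4, and to 5 without ZT15 replicate 3, ZT19 replicate 1, ZT19 replicate 3 or ZT23 replicate 3. Steps also fell to 3 without the 3 arrays of lowest weight, chosen after seeing the data, where fewer arrays were tested. Under the other alternatives the rhythm was called for 7 or 8 genes, any difference for 6 to 8 and night minus day for 7 or 8, and no called value changed direction. Hspa4l gave most of the changes: its rhythm was lost under robust moderation (adjusted p = 0.0511) and no moderation (0.0803), and its night minus day was called after quantile normalization (0.0460). Any difference for Hspb1 was lost without moderation (0.0535). The causes were not tested. Over all genes the arrays gave no sign that replicate numbers pair the samples, but pairing in part of the genes was not tested. Deviations of same-numbered arrays had a mean correlation of -0.0141 over 60 pairs, against 0.0051 for other numbers. Of 24 arrays 8 correlated best with their own number. With the replicate block, 7 rhythms, 7 differences among times, 7 night-minus-day differences, 5 steps and 10 opposite times were called, the calls lost being the Hspa4l rhythm (0.0582) and Hspa1b at ZT19 against ZT07 (0.0503). Signal over background is unknown.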
